A study of Mus musculus with 2 samples.

Results

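The Slc25 genes encode the mitochondrial solute carriers, and their levels were described in the adrenal gland of the mouse. Members were the protein-coding genes of the annotation whose symbol was Slc25a followed by a number. The rule found 47 genes among 21901 genes with a protein-coding transcript, and used no measured value. The 2 libraries came from the adrenal glands of adult male mice, 8 to 10 months old, of a cross labelled 5xFAD X Cast, in which 5xFAD is a transgenic line used as a model of Alzheimer's disease and Cast is the wild-derived CAST strain. They were the labelled biological replicates 1 and 2 of the only group, without a control group, so the comparisons are between members, between the 2 libraries, and between the family and all genes. The labels give the 2 libraries separate tissue samples under the same donor entry, so the spread between them may not be a spread between animals. The human transgenes of the line were not measured separately, and RNA from the CAST genome was counted against the mm10 reference.

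Mitochondrial carriers are small proteins of the inner membrane, each built from a tandem repeat of similar segments, that exchange nucleotides, phosphate, carboxylates, amino acids, cofactors and other solutes between the matrix and the cytosol. Nuclear genes encode them, and the finished proteins are carried across the intermembrane space to the TIM22 complex, which inserts them in the inner membrane. In the adrenal cortex, mitochondria also hold the first and the last steps of corticosteroid synthesis, which draw on matrix NADPH and on imported cholesterol.

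The gene tables held 29193473 and 26311901 expected counts on annotated genes in replicates 1 and 2, so counting error was small for most members. Levels are given in TPM, a unit scaled for transcript length and library size, so that genes can be compared with each other. All 6 listed markers of the steroid-producing cortex (Star was the highest, at 5583 and 5825 TPM) and all 5 of the chromaffin cell were detected in both libraries. The 5 listed white adipocyte markers were all lower in replicate 2, with a summed level of 470.3 and 273.64 TPM, and so were the 3 macrophage markers, at 180.51 and 103.97 TPM, and none of these 8 was at 0. In bulk tissue, fewer cells of a type and less RNA per cell cannot be told apart. The 3 erythroid markers were all higher in replicate 2, at 503.86 and 606.9 TPM. No liver or skeletal muscle marker reached 1 TPM in both libraries.

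Some short sequences that the results below refer to are shown here. The first pair are alternative coding exons of Slc25a3, the carrier that brings phosphate into the matrix for ATP synthesis. They occupy the same place in the messenger RNA, and the transcript numbered 201 carries the first while 206 carries the second, known as the form of heart and skeletal muscle. Both lie on the minus strand of mm10, at chr10:91121922-91122043 for 201 and chr10:91122207-91122331 for 206. In a global alignment 77 of 125 columns were identical (61.6%), and capitals mark the bases that differ or are present in only that exon.
Slc25a3 exon of transcript 201: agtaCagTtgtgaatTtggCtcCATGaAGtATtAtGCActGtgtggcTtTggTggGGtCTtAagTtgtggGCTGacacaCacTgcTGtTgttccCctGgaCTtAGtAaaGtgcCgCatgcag
Slc25a3 exon of transcript 206: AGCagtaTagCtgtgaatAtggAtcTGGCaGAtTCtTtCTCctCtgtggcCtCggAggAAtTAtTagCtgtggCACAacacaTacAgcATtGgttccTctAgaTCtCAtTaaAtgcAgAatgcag

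The next is the 116-base coding exon of Slc25a12, the aspartate/glutamate carrier aralar, at chr2:71333605-71333720 on the minus strand of mm10. It is shown because the transcript that held the largest share of this gene's level lacks it. Its transcripts are annotated with 18 exons for the coding form, 206, and 17 for the form that lacks it, 207, whose last exon is also shorter, at 664 bases against 4291.
Slc25a12 exon absent from 207: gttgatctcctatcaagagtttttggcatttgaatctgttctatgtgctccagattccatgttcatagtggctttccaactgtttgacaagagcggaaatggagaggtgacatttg

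The last is the 158 bases before the outermost annotated start of Slc25a3, at chr10:91124060-91124217 on the minus strand, from the RefSeq promoter table (GRCm38.p6). Capitals mark the match to GCGC, any base, TGCGC, the NRF1-like site named for a factor of respiratory genes, which begins 122 bases before the start, and the match to the GC box GGGCGG, which begins 60 bases before it.
Slc25a3 upstream: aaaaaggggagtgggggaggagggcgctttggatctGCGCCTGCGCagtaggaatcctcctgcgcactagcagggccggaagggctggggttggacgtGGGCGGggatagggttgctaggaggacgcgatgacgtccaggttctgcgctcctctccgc

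Of the 47 members, 39 were detected, meaning at 1 TPM or more in both libraries. That is 83.0% of the family, beside 56.4% of all genes with a protein-coding transcript. The members summed to 1417.5 TPM in replicate 1 and 1268.1 TPM in replicate 2 (1343 ± 106, SD, n = 2), which was 0.390% and 0.343% of the TPM of all protein-coding genes. The median detected member was at 14.39 and 14.74 TPM, beside 12.35 and 12.47 TPM for all 12355 detected protein-coding genes.

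Few genes carried most of this level. Only 3 members had a mean of 100 TPM or more, 22 lay between 10 and 100 TPM and 14 more were detected below 10 TPM. The 3 highest held 44.9% and 37.9% of the family's TPM in replicates 1 and 2, and the 10 highest held 72.2% and 68.8%. Placed in order of mean TPM, 17 of the 38 neighbouring pairs of detected members had levels that did not overlap between the libraries, and 21 overlapped. The 5 highest, Slc25a3, Slc25a39, Slc25a5, Slc25a30 and Slc25a51, were each separated from the next of the 5 in the gene tables. In the second quantifier Slc25a5 (91.6 and 87.5 TPM) and Slc25a30 (88.6 and 95.2 TPM) overlapped, with the higher mean in Slc25a30, and Slc25a51 (47.0 and 45.5 TPM) lay below Slc25a4, Slc25a1 and Slc25a10. from Slc25a32 down to Slc25a45 every neighbouring pair overlapped, so neighbours among those 8 genes could not be ranked.

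**Figure D1:**
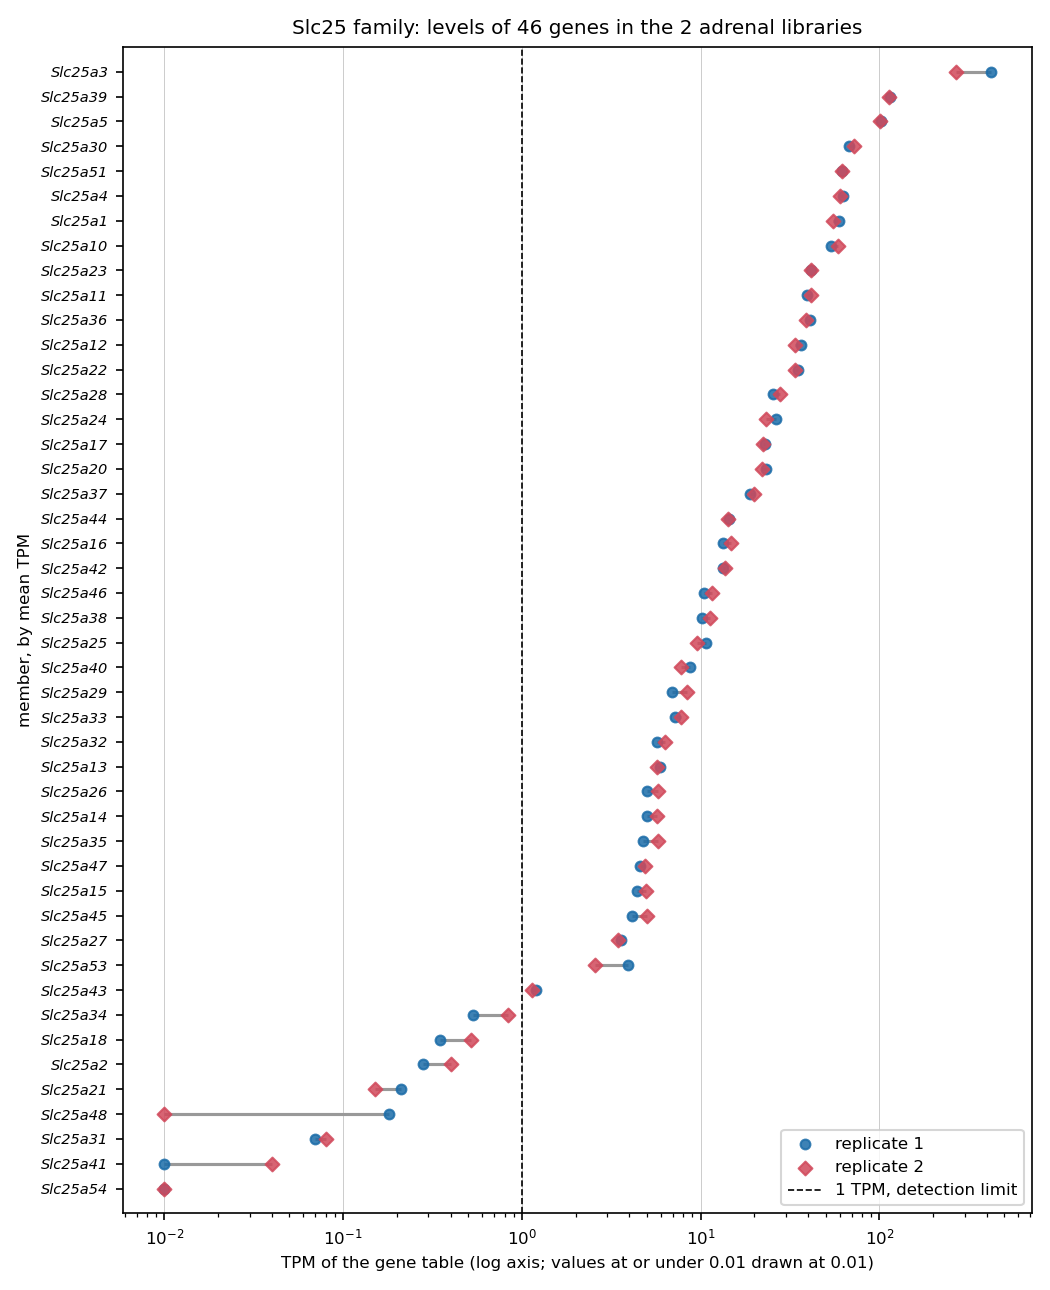
TPM of 46 of the 47 members in replicate 1 (circles) and replicate 2 (diamonds), on a log axis, ordered by mean TPM; the line joins the 2 libraries and the dashed line marks 1 TPM. Slc25a3 stands highest at 419.48 and 266.83 TPM, and the 8 members at the bottom lie under 1 TPM in both libraries.

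The carriers that feed ATP synthase formed the most abundant group. Slc25a3 was at 419.48 TPM in replicate 1 and 266.83 TPM in replicate 2 (343 ± 108, SD, n = 2), rank 62 and 131 among protein-coding genes. The adenine nucleotide translocases, which exchange cytosolic ADP for matrix ATP, followed: Slc25a5 (Ant2) was at 102.76 and 101.29 TPM. Slc25a4 (Ant1), the form typical of heart and muscle, was at 62.39 and 60.47 TPM. The testis form, Slc25a31 (Ant4), had 4 counts in each library and was not detected. The group's 4 genes held 41.2% and 33.8% of the family's TPM, and Slc25a3 accounted for the difference, because both translocases agreed between the libraries within 1.25-fold.

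Among the carriers that move ATP-magnesium against phosphate, which set the size of the matrix nucleotide pool, Slc25a23 led at 41.69 and 41.64 TPM. Slc25a24 was at 26.28 and 23.36 TPM and Slc25a25 at 10.75 and 9.50 TPM, so the order of these 3 calcium-regulated genes was the same in both libraries. The remaining members of this type were nearly silent: Slc25a41 had 0 and 1 counts, and Slc25a54 had 0 in both libraries, a count that allows up to 3. The peroxisomal carrier Slc25a17 was at 22.96 and 22.47 TPM.

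All 3 main exchangers of di- and tricarboxylates were among the 10 highest members. Slc25a1, the citrate carrier that supplies acetyl groups to the cytosol for fatty acid and sterol synthesis, was at 59.73 and 54.97 TPM. Slc25a10, the dicarboxylate carrier, was at 53.83 and 58.95 TPM, and these levels overlapped those of Slc25a1. Slc25a11, the oxoglutarate/malate carrier, was at 39.38 and 41.63 TPM. Slc25a21, the oxodicarboxylate carrier of lysine and tryptophan breakdown, had 10 and 8 counts and was not detected. The enzymes on the cytosolic side of this exchange stood far above the carriers: Me1, which makes NADPH from malate, was at 633.37 and 531.09 TPM, Acly, which splits citrate, at 390.33 and 448.11 TPM, and Idh1 at 190.87 and 212.52 TPM. Of the 8 listed enzymes of citrate and malate, 7 were detected and none was past 1.5-fold between the libraries. Me3, a mitochondrial malic enzyme, was at 0.61 and 0.39 TPM.

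By gene-level TPM, amino acid carriers split into high and low copies. Slc25a12 (aralar) was at 36.57 and 33.70 TPM, and its relative Slc25a13 (citrin), the main form of liver, was at 5.95 and 5.71 TPM. Slc25a22, the first glutamate carrier, was at 35.26 and 33.72 TPM, while the second, Slc25a18, had only 18 and 24 counts (0.35 and 0.52 TPM). Slc25a38, the glycine carrier that supplies heme synthesis, was at 10.17 and 11.24 TPM. The malate-aspartate shuttle also needs soluble and mitochondrial enzymes, and all 6 listed enzymes of this and the glycerophosphate shuttle were detected, with Mdh1 (129.5 and 135.94 TPM), Mdh2 (100.79 and 103.26 TPM) and Gpd1 (61.49 and 53.15 TPM) highest.

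Carriers of basic and branched-chain amino acids were lower. Slc25a44, which brings branched-chain amino acids into the matrix, was at 14.39 and 14.22 TPM, the highest of these 5 genes. Slc25a29 was at 6.90 and 8.37 TPM and Slc25a45 at 4.15 and 5.01 TPM. Slc25a15, the ornithine carrier of the urea cycle, was at 4.38 and 4.92 TPM. Its intronless relative Slc25a2 had 10 and 13 counts and was not detected. The urea cycle itself was incomplete in these libraries: Otc had 0 counts in both, and Cps1, Arg1 and Arg2 were all under 1 TPM, whereas Odc1, which turns ornithine into polyamines, was at 134.71 and 123.36 TPM, Asl at 44.52 and 52.36 TPM and Oat at 45.49 and 50.37 TPM.

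Slc25a20, the carrier that exchanges acylcarnitine for carnitine across the inner membrane, was at 23.18 and 21.95 TPM. The enzyme before it, Cpt1a, was at 93.66 and 96.81 TPM and the enzyme after it, Cpt2, at 29.97 and 28.26 TPM. Crat followed at 19.14 and 15.90 TPM, and all 5 listed genes of the carnitine shuttle were detected, with none past 1.5-fold.

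Every cofactor and nucleotide carrier was detected, 8 of 8, with a summed level of 166.85 and 170.45 TPM. Slc25a51, which imports NAD into the matrix, was the highest of them at 61.85 and 62.14 TPM (62.0 ± 0.205, SD, n = 2). Slc25a36, a pyrimidine nucleotide carrier, was at 41.02 and 38.92 TPM, and its relative Slc25a33 at 7.21 and 7.72 TPM. The coenzyme A carriers Slc25a16 and Slc25a42 lay together, at 13.36 and 14.74 TPM and at 13.39 and 13.72 TPM, and their levels overlapped. Slc25a32, the folate and flavin carrier, was at 5.71 and 6.34 TPM and Slc25a26, which imports S-adenosylmethionine, at 4.99 and 5.78 TPM.

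The glutathione carrier Slc25a39 was the second highest member, at 114.67 and 112.63 TPM (114 ± 1.44, SD, n = 2). Its near relative Slc25a40 was at 8.68 and 7.80 TPM. The mitoferrins, which bring iron into the matrix for heme and iron-sulfur clusters, were closer to each other: Slc25a28 (mitoferrin-2) was at 25.44 and 27.81 TPM and Slc25a37 (mitoferrin-1), the form of developing red cells, at 18.99 and 20 TPM. Of the genes that use this iron, Alas1, which starts heme synthesis, was at 699.31 and 834.5 TPM, Iscu, the scaffold for iron-sulfur clusters, at 185.59 and 239.09 TPM, and Fech, which inserts the iron in heme, at 45.77 and 51.15 TPM. All 8 listed genes of iron and heme were detected and all 8 were higher in replicate 2, with a median log2 ratio of 0.16, none past 1.5-fold. The 3 erythroid markers, of which Alas2 is also in the iron and heme list, were higher there too, with a median log2 ratio of 0.27, and their part in these ratios was not tested.

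Among the carriers that resemble uncoupling proteins, Slc25a30 (Kmcp1) was the fourth highest of the family in the gene tables, at 67.56 and 72.19 TPM. It was the third by mean in the second quantifier, where a processed transcript held 36.6% and 29.5% of its TPM. Slc25a14 (Bmcp1) was at 5.04 and 5.71 TPM and Slc25a27 (Ucp4) at 3.59 and 3.47 TPM. Carriers of the same superfamily that bear other symbols were outside the rule and are given for scale: Ucp2 was at 102.43 and 108.75 TPM, Mtch1 at 80.06 and 80.54 TPM and Mtch2 at 43.99 and 49.60 TPM. Of those 5 genes only Ucp1, the heat-producing carrier of brown fat, was past 1.5-fold, at 172 and 72 counts (3.91 and 1.83 TPM), with a log2 ratio of -1.11 (counting SE 0.20). The brown adipocyte markers, Ucp1 among them, were lower in replicate 2 for 4 of 5 genes, and none of them was at 0. Their summed level was 54.12 and 48.18 TPM, and their part in the Ucp1 ratio was not tested.

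The members whose solutes are less well defined lay near or below the median of all members, 10.44 and 11.24 TPM. Slc25a46, an outer membrane protein linked to mitochondrial fission, was highest at 10.44 and 11.63 TPM. Slc25a35 was at 4.77 and 5.78 TPM, Slc25a47 at 4.56 and 4.90 TPM, Slc25a53 at 3.91 and 2.56 TPM and Slc25a43 at 1.20 and 1.14 TPM, just inside the detection limit. Slc25a34, just outside it, was at 0.53 and 0.84 TPM. Slc25a48 had 17 counts in replicate 1 and 1 in replicate 2. Kidney markers were also lower in replicate 2, with Aqp2 at 64 and 34 counts, Cubn at 37 and 16, Lrp2 at 24 and 0 and Miox at 14 and 5, a summed level of 2.33 and 1.38 TPM in which only Aqp2 was detected, and their part in the Slc25a48 counts was not tested.

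The listed pairs of related carriers were mostly unequal in level. In the gene tables, 9 of 11 pairs of related members differed by more than 1.5-fold the same way in both libraries, and 8 by more than 2-fold. The pairs were chosen with earlier results of these data known. The share over unrelated pairs was not counted, so these counts do not set related carriers apart. Slc25a5 exceeded Slc25a4 by 1.66 ± 0.0198-fold (SD, n = 2), and Slc25a24 exceeded Slc25a25 by 2.45 ± 0.0101-fold. Wider gaps separated Slc25a39 from Slc25a40, at 13.8 ± 0.869-fold, and Slc25a22 from Slc25a18, at 82.8 ± 25.4-fold, the latter resting on the few counts of Slc25a18. At gene level Slc25a13 was at 0.166 ± 0.00476 of Slc25a12, and Slc25a14 at 0.0768 ± 0.00318 of Slc25a30. In the estimated split between transcripts, the first of these gaps was not seen between the forms typed as protein-coding. For Slc25a12 the coding form, 206, was at 4.65 and 4.24 TPM. For Slc25a13 the leading coding form was at 4.2 TPM (203) in replicate 1 and 5.21 TPM (201) in replicate 2. The last exons of Slc25a12 forms 206 and 207 differ in length, so these levels do not settle how the coding forms compare. The 2 pairs within 1.5-fold were the mitoferrins, with Slc25a28 at 1.37 ± 0.0360 of Slc25a37, and Slc25a11 at 0.719 ± 0.0179 of Slc25a10. The gap of each pair had the same direction in the second quantifier, another transcript table that the authors deposited for the same libraries. Its size did not always hold: 6 of the 11 ratios moved by more than the SD between libraries. Slc25a24 exceeded Slc25a25 there by 1.92 ± 0.00584-fold, under 2-fold, so the SDs above do not cover the choice of quantifier. Since the libraries are the same, this comparison checks the quantification only.

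**Figure D2:**
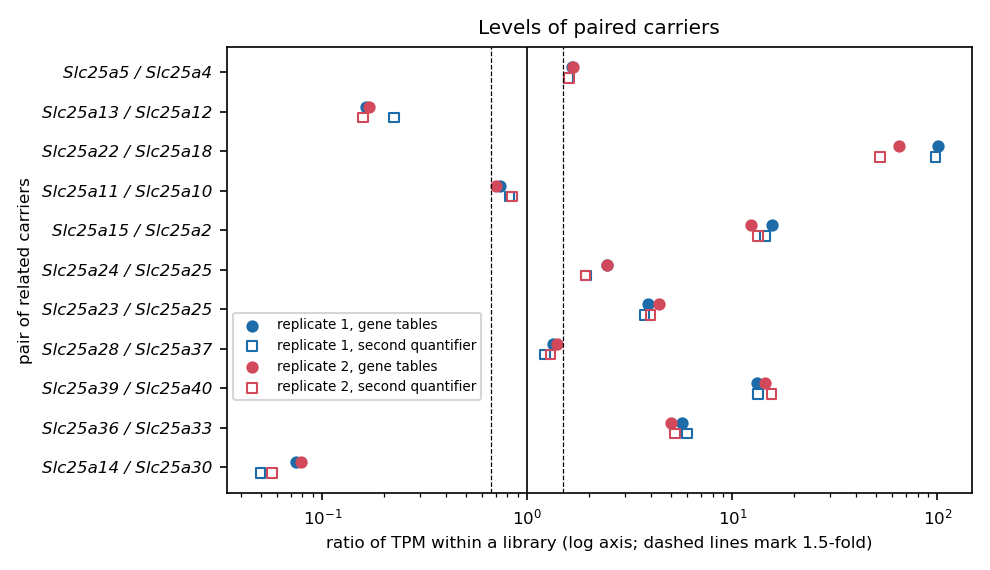
Ratio of TPM between the members of 11 related pairs, on a log axis, within replicate 1 (blue) and replicate 2 (red), from the gene tables (filled circles) and the second quantifier (open squares). Dashed lines mark 1.5-fold: 9 pairs lie outside them in both libraries, and Slc25a28 / Slc25a37 and Slc25a11 / Slc25a10 lie inside.

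Between the libraries the family as a whole was steady, and a single abundant member was not. Ratios were taken from expected counts scaled by the trimmed mean of M-values (TMM), for the 41 members that averaged 20 counts or more. Their median log2 ratio of replicate 2 to replicate 1 was 0.0066, beside -0.0061 for all 16373 genes above that minimum. Of the 41, 19 were lower in replicate 2 (46.3%), beside 51.3% of all genes, and 22 were higher. Most, 38 of 41, lay within 1.25-fold, beside 80.7% of all genes. Only 2 of 41 (4.88%) were past 1.5-fold, beside 6.72% of all genes and 4.82% of protein-coding genes, so the share of members was near the background. In replicate 2, 1 was lower and 1 higher, beside 4.03% and 2.69% of all genes. None was past 2-fold, beside 1.67% of all genes. These shares were not matched for counts, and counting error is larger for genes near the minimum of 20.

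The 2 members past 1.5-fold differed in how well they were measured. Slc25a34 had 39 and 55 counts and a log2 ratio of 0.63, with a counting standard error of 0.30, so its 1.5-fold difference was near counting error. Slc25a3 had 17481 and 10022 counts and a log2 ratio of -0.66 (counting SE 0.018), which is 1.58-fold lower in replicate 2. The authors' deposited intervals for its TPM ran from 402 to 418 in replicate 1, with an upper bound just below the TPM itself, and from 253 to 267 in replicate 2, and did not overlap. The next lowest ratio among the 41 was -0.22, for Slc25a53. Among the 2548 genes that averaged 2000 counts or more, a limit chosen after these values were seen, 0.824% were past 1.5-fold either way and 8 had a lower ratio than Slc25a3.

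Without Slc25a3, the other 46 members summed to 998.04 TPM in replicate 1 and 1001.2 TPM in replicate 2 (999.6 ± 2.26, SD, n = 2), so the difference in the family's sum lay in that gene. The ratio of Slc25a3 was past 1.5-fold under each of the scalings and count minimums that were tried, and the second quantifier gave 431.9 and 279.43 TPM. Adipocyte and macrophage markers moved the same way, with median log2 ratios of -0.87 and -0.72. Their part in the Slc25a3 ratio was not tested, and with 2 libraries no test of any difference between them was possible.

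**Figure D3:**
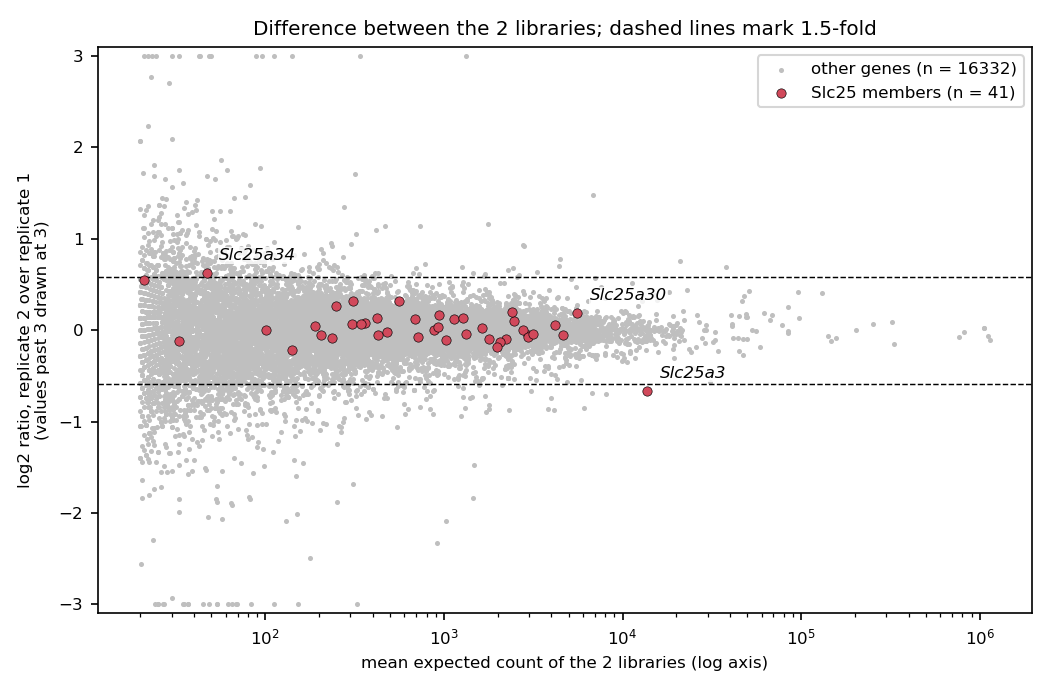
Log2 ratio of replicate 2 to replicate 1 against the mean expected count (log axis) for the 41 members (red) and 16332 other genes (grey) that averaged 20 counts or more; dashed lines mark 1.5-fold and ratios past 3 are drawn at 3. Slc25a3 lies under the lower line at -0.66, while the other abundant members lie near 0.

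The transcript tables showed which forms of Slc25a3 made up this difference. Transcript 201, the ubiquitous coding form, held 74.6% of the gene's TPM in replicate 1 and 77.8% in replicate 2, at 313.06 and 207.55 TPM, a ratio of 1.51. Transcript 203 has the same coding sequence but keeps the first intron, chr10:91123707-91123915, in its leader, and it differed more, at 39.39 and 5.08 TPM (1560 and 180 counts), a ratio of 7.75. Transcript 206, with the muscle exon shown above, was at 7.4 and 3.33 TPM, only 1.76% and 1.25% of the gene. None of the 4 listed muscle markers was detected, and their summed level was 1.80 and 1.35 TPM. Of the retained-intron forms, 207 was at 37.03 and 29.08 TPM, a ratio of 1.27, while 204, at 10.70 and 9.75 TPM, and 208, at 10.80 and 10.49 TPM, were nearer level.

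The forms typed as protein-coding thus made up more of the gap than those typed as retained intron. In the second quantifier as well, 201 and 203 were lower in replicate 2 by a larger factor than 207, with 201 at 222.22 and 138.15 TPM, 203 at 55.73 and 13.79 TPM and 207 at 58.98 and 51.82 TPM. It assigned more to 204, at 77.31 and 60.01 TPM. Forms 201 and 203 share their coding exons and differ at both ends as well as in the first intron, so reads within the coding exons cannot tell them apart and the split between them is an estimate. The small nucleolar RNA gene Gm24119 lies within Slc25a3 on the same strand, at chr10:91118291-91118536. It had 518 and 353 counts, so it was lower in replicate 2 as well, and the gene tables list it as a gene of its own.

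**Figure D4:**
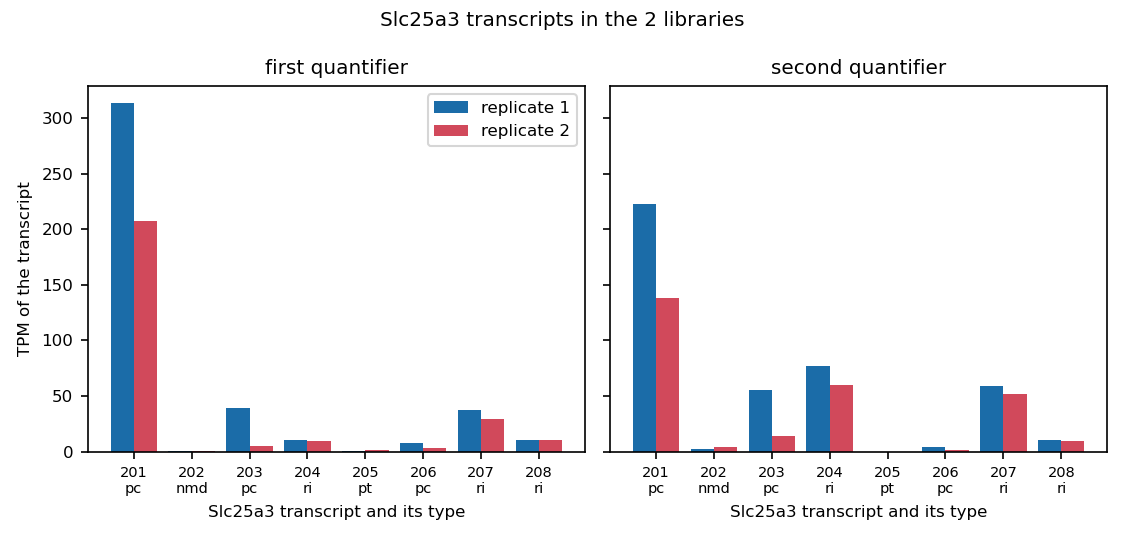
TPM of the 8 annotated Slc25a3 transcripts in replicate 1 (blue) and replicate 2 (red), from the first quantifier (left) and the second quantifier (right); pc is protein-coding, ri retained intron, nmd nonsense-mediated decay and pt processed transcript. Transcripts 201 and 203 are lower in replicate 2 in both panels, and 208 is nearly level.

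Most members kept the same leading transcript, the form with the largest share of the gene's TPM. It was the same in both libraries for 36 of 39 detected members (92.3%), beside 88.2% of all detected protein-coding genes. It was also the same in both quantifiers for 27 of 39 (69.2%), beside 71.9%. The 3 members whose leader differed between libraries were Slc25a13, Slc25a32 and Slc25a53. For Slc25a13, transcript 203 held 70.5% in replicate 1 and 201 held 91.1% in replicate 2, forms that share a coding sequence and differ at their ends, while the second quantifier put 203 first in both.

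In 3 of 39 members (7.69%), beside 5.80% of all detected protein-coding genes, the leading transcript was not annotated as protein-coding in either library. The most abundant of these was Slc25a12, whose transcript 207 is annotated for nonsense-mediated decay, the pathway that removes messages with an early stop, and lacks the 116-base exon shown above. It held 52.1% and 54.7% of the gene's TPM (1252 and 1082 counts), and 39.9% and 42.7% in the second quantifier. The coding form 206 held 12.7% and 12.6% (832 and 678 counts). The others were Slc25a47 and Slc25a53, both low, for which processed transcripts led. In the first quantifier the gene-level TPM of Slc25a12 given above was therefore mostly assigned to a form not annotated to make the full protein. The ratio of Slc25a12 to Slc25a13 includes that form. Forms 206 and 207 differ in the last exon as well as in the 116-base exon, so the split between them is an estimate. Reads across the 116-base exon were not examined.

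Forms that keep an intron held a median of 7.22% and 5.77% of a detected member's TPM in replicates 1 and 2, beside 4.65% and 4.57% over all detected protein-coding genes. They exceeded 20% in both libraries in 7 of 39 members (17.9%), beside 20.05% of all detected protein-coding genes, so this share was near the background. Slc25a40 had the largest share, at 50.2% and 64.9%, and its coding forms were at 49.8% and 35.1%. Slc25a22 was at 41.7% and 33.9%, Slc25a36 at 39.8% and 36.6%, and Slc25a42 at 37.3% and 35.4%. In the mitoferrin Slc25a37 they held 37.8% and 46.0%, and transcript 203, which keeps an intron, led in the second quantifier. In its relative Slc25a28, the retained-intron form 202 held 14.5% and 16.6% and the processed transcript 203 held 35.5% and 41.5%. At the other end, Slc25a33 has a single annotated transcript, and the first quantifier gave all of Slc25a46 to its coding form in both libraries. Total RNA holds unspliced precursors as well as finished messages, and these tables cannot tell apart a precursor and a stable transcript that keeps an intron.

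**Figure D5:**
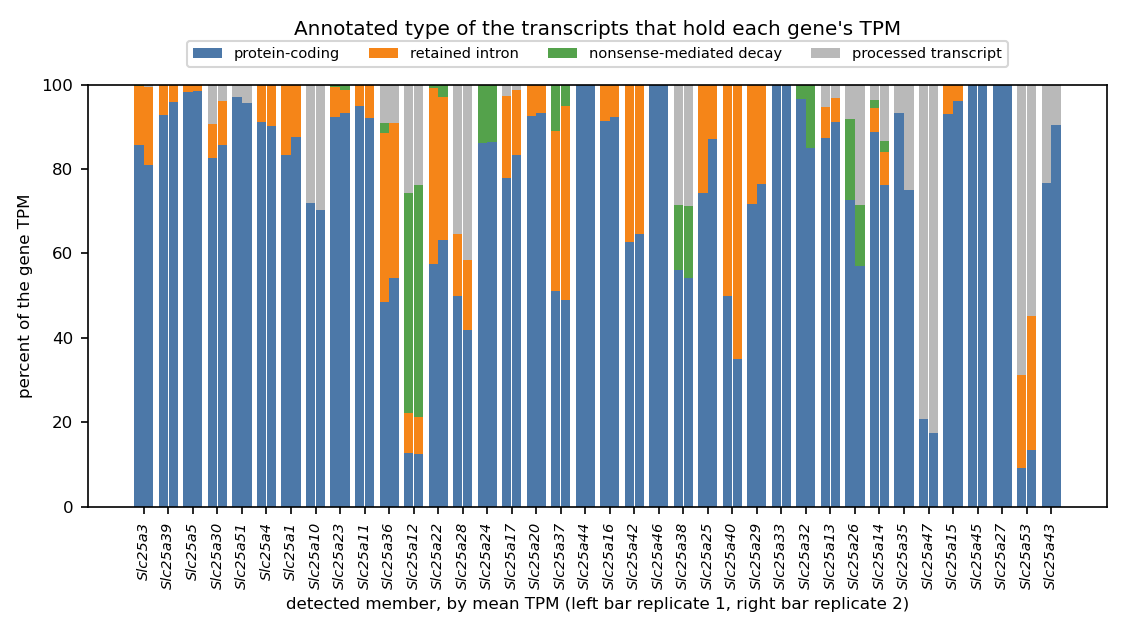
Share of the TPM of 38 of the 39 detected members, in percent, held by transcripts of each annotated type; the left bar of a pair is replicate 1, the right bar is replicate 2, and members run from high to low TPM. Slc25a12 stands out by its nonsense-mediated decay share of 52.1% and 54.7%, and Slc25a40 by its retained-intron share.

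The members were spread over the genome. They lay on 19 chromosomes, 4 of them on X. There were 4 pairs within 20000 bases of each other. The closest pair, Slc25a29 and Slc25a47, lie head to head 162 bases apart on chromosome 12, at 6.90 and 8.37 TPM and at 4.56 and 4.90 TPM. The silent Slc25a41 lies 2056 bases from the abundant Slc25a23, and the silent Slc25a54 lies 6461 bases from Slc25a24. On X, Slc25a43 lies 18448 bases from Slc25a5, at 1.20 and 1.14 TPM against 102.76 and 101.29 TPM.

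RefSeq promoter windows of 300 bases were at hand for 36 of the 47 members. The GC box GGGCGG, searched on both strands as were all motifs, was in 30 of 36 (83.3%), beside 38.2% of all genes with a window and 70.1% of those with a detected protein-coding gene. CCAAT was in 19 of 36 (52.8%), beside 41.1% and 42.8%. The NRF1-like run of GCGC, any base and TGCGC was in 2 of 36 (5.56%), beside 5.19% and 11.6%, and these were Slc25a3, shown above, and Slc25a31, the highest and the lowest of the ATP synthesis group. The cyclic AMP element TGACGTCA was in Slc25a25 and Slc25a36 (5.56%, beside 2.03% and 3.58%). The letters CAAGGTCA, a site of the steroidogenic factor Nr5a1, were in no window of a member, beside 1.76% and 1.30%. A match is a run of letters and no measure of binding.

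The machinery that serves the carriers was detected throughout. All 10 listed genes of TIM22 import were detected, from 6.88 to 58.06 TPM in replicate 1 and from 8.56 to 56.04 TPM in replicate 2. Timm13 (58.06 and 56.04 TPM), Timm8b (47.03 and 43.95 TPM) and Timm10b (33.77 and 27.30 TPM), small chaperones of the intermembrane space, were highest, and none of the 10 was past 1.5-fold. All 17 other listed transport genes of the inner and outer membranes were detected, none past 1.5-fold. Tspo, an outer membrane protein that binds cholesterol, was at 168.52 and 156.37 TPM, Vdac1, the main outer membrane pore, at 141.62 and 149.57 TPM, and Vdac3 at 77.82 and 72.88 TPM. Of all members, only Slc25a3 was above Tspo in both libraries.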

How the data were processed

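Total RNA, reduced of ribosomal RNA, was sequenced from 2 adrenal libraries, each from 300 ng of RNA with spike-ins, per the labels. The authors deposited gene tables on mm10 and GENCODE M21 with TPM, FPKM and expected counts. The deposited transcript tables gave the percent of its gene held by each transcript, per the file headers. The deposited TPM interval bounds, a signal in TPM units whose level the headers do not give, were used for Slc25a3 only. A second deposited transcript table, here called the second quantifier, gave TPM and estimated counts, which were summed per gene. Column names are those of RSEM and kallisto, but no aligner or quantifier is named in these sources.

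Rows that name no annotated gene held 0.507% and 0.544% of counts and stayed out of library sizes. Expected counts were rounded, and ratios used TMM (edgeR 4.0.16 in R 4.3.3) and a prior count of 0.5. The ratio calculation was tested on simulated data. The counting SE covers counting error only. With 1 group of 2 libraries, no residual degrees of freedom remained, so no p-value was computed and sample differences are descriptions. Expected counts were whole, within 0.005, for 41 of 47 members, so reads shared with similar genes touched few of them. The 6 others were Slc25a3, Slc25a5, Slc25a51, Slc25a36, Slc25a20 and Slc25a37, some of them among the highest members. How many of their reads were shared was not measured. Sequences came from GENCODE M21 transcripts and the RefSeq promoter table (GRCm38.p6), and exons were aligned with Biopython 1.88.

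Every member could be named, but 1 is counted in the totals and not reported here by itself or drawn by name. Of the listed other genes, the 3 highest of a list, those under 1 TPM and those past 1.5-fold were named, and markers in ranges with examples. The members, pairs and lists were chosen with earlier results of these data known. Alternatives were another quantifier, unit, scaling, count minimum, detection limit and fold, and leaving out each library (DESeq2 1.42.0 size factors among them).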

Additional observations from a re-analysis of the deposited data

How the results depend on the processing

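The number of detected members stayed between 38 and 40 with the second quantifier, FPKM, TPM over protein-coding genes alone and limits of 0.5 or 2 TPM. Scaling TPM over protein-coding genes alone raised the family's sum to 3665 TPM and the median member to 29.6 TPM, and leaving out Slc25a3, an alternative chosen after seeing the data, lowered the sum to 999.6 TPM. The median was 10.2 TPM with the second quantifier and 14.6 TPM over detected members alone. Members past 1.5-fold numbered 1 with TPM + 1 (Slc25a3), 1 with 100 mean counts or more (Slc25a3) and 4 with no minimum (Slc25a3, Slc25a34, Slc25a48 and Slc25a41), and 0 were past 2-fold; the second one besides Slc25a3 was Slc25a18 with the second quantifier and Slc25a53 with TPM + 0.1. Without either library the detected members were 39, the sum 1268.1 to 1417.5 TPM, the median 10.44 to 11.24 TPM and the pairs past 1.5-fold 9. Of the 47 member levels, 27 moved by more than the SD between libraries with the second quantifier, 8 up and 19 down, which is a narrow yardstick since many SDs were under 1 TPM. The cause of these moves was not tested.

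No paired analysis was possible because the study has 1 group. Leaving out a library leaves no ratio between libraries, so those results have no such alternative. Depth limits the members under 100 counts, Slc25a43, Slc25a34, Slc25a18, Slc25a2, Slc25a21, Slc25a48, Slc25a31, Slc25a41 and Slc25a54, whose levels and ratios carry a large counting error.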

Other observations

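The quantifiers ranked a few members differently. The ratio of the second quantifier's TPM to the gene tables' TPM had a median of 0.964 over the detected members and lay within 1.25-fold for 34 of 39. It was lowest for Slc25a51, at 0.746, and highest for Slc25a45, at 1.48. For Slc25a51 the quantifiers also chose different leading transcripts, 201 in the gene tables' pipeline and 202 in the second, and the second put the NAD carrier below Slc25a4 (57.65 and 54.84 TPM), Slc25a1 (60.07 and 56.44 TPM) and Slc25a10 (50.41 and 53.29 TPM), at 47.01 and 45.53 TPM. By mean, the second quantifier also put Slc25a30 (91.9 TPM) above Slc25a5 (89.5 TPM). There a processed transcript, 203, held 36.6% and 29.5% of the TPM of Slc25a30. Its leading coding form, 201, was at 48.0 and 55.3 TPM, below the coding form 201 of Slc25a5 at 89.8 and 85.5 TPM. The processed pseudogene Slc25a5-ps, outside the rule, had 0 counts in both libraries.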
